A study of Mus musculus with 4 samples.

Results

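The comparison described here is that of the cochlea of wild-type mice with and without a systemic injection of diphtheria toxin (DT), that is, of the toxin given to mice that carry no human toxin receptor. It was made on 2 of the 4 arrays of the series, the untreated wild-type array, titled WT DT(-), and the DT-treated wild-type array, titled WT DT(+). The other 2 arrays were made from Prestin-hDTR (OHC-TRECK) mice, in which the promoter of the outer hair cell motor protein gene Slc26a5 (prestin) drives the human DT receptor, with and without the toxin, and they were used only for comparison. All mice were on the B6J background and 5 weeks old. The treated mice had received DT at 50 μg/kg body weight 7 days before dissection. Each array was hybridised with 1 pool of cochlear RNA from 4 females and 4 males (8 cochleae), so that each group had 1 value per probe and no measure of the spread between mice. No p-value was therefore calculated, every ratio has no replicate check, and every statement below refers to these 2 pools.

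DT enters a cell through heparin-binding EGF-like growth factor (the Hbegf product), is cut by furin, and inactivates elongation factor 2 by modifying its diphthamide residue, so that translation stops. The mouse form of the receptor binds the toxin poorly, and for this reason wild-type littermates serve as the toxin control in models built on the human receptor. A whole cochlea is a mixed tissue: beside the organ of Corti, the spiral ganglion and the lateral wall, the sample carries bone, vessels and the blood cells within them. The lists examined covered red cell precursors, B cells, granulocytes, platelets, other leukocytes, neurons, glia, ear cell types, and the toxin pathway (50 lists, 769 genes). They were chosen with earlier results of these data known.

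The level of a probe is given as log2 of its background-subtracted signal divided by the 75th percentile of its array, so that a level of 0 is the signal of the 75th percentile, and a ratio is the level on the DT-treated array minus that on the untreated array, where 1 is a 2-fold difference. Levels are not compared between probes. Probes flagged well above background made up 67.0% of the untreated and 62.5% of the DT-treated wild-type array, no spot was saturated, and spots of the same probe on one array had a median SD of 0.071 and 0.061 (log2). The 24328 probes well above background on both arrays had a median ratio of -0.03 with an SD of 0.26. Of these probes, 186 (0.765%) were at least 2-fold higher and 79 (0.325%) at least 2-fold lower after DT, so that 70.2% of the probes past 2-fold were higher. With normexp background correction and quantile scaling the counts were 99 and 24 (80.5% higher). With each gene read from its brightest measured probe, 160 of 18692 genes (0.856%) were at least 2-fold higher and 63 (0.337%) at least 2-fold lower. At 1.5-fold the shares were 2.13% higher and 1.43% lower, and irrespective of size 41.6% of the genes were higher and 58.4% lower. The spread of the ratio depended on the level: with the probes put into 10 bins of equal number by level, its SD was 0.39 in the dimmest bin, 0.42 in the next and 0.12 in the brightest, and 251 of the 265 probes past 2-fold (94.7%) lay in the 5 dimmer bins. The brightest bin had a median ratio of -0.10. Of the 160 higher genes, 41 belonged to the lists of blood cells, 10 to the cell cycle list and 4 to that of motile cilia. Of the 183 genes of the blood cell lists measured on both arrays, 41 (22.4%) were at least 2-fold higher and 0 lower. Of the 18069 genes in no list, 99 (0.548%) were 2-fold higher and 62 lower. Because the lists were chosen with earlier results of these data known, these shares are no test of enrichment. The plot of ratio against level shows where the red cell, B cell, neutrophil and neuronal genes lie within all probes.

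**Figure D1:**
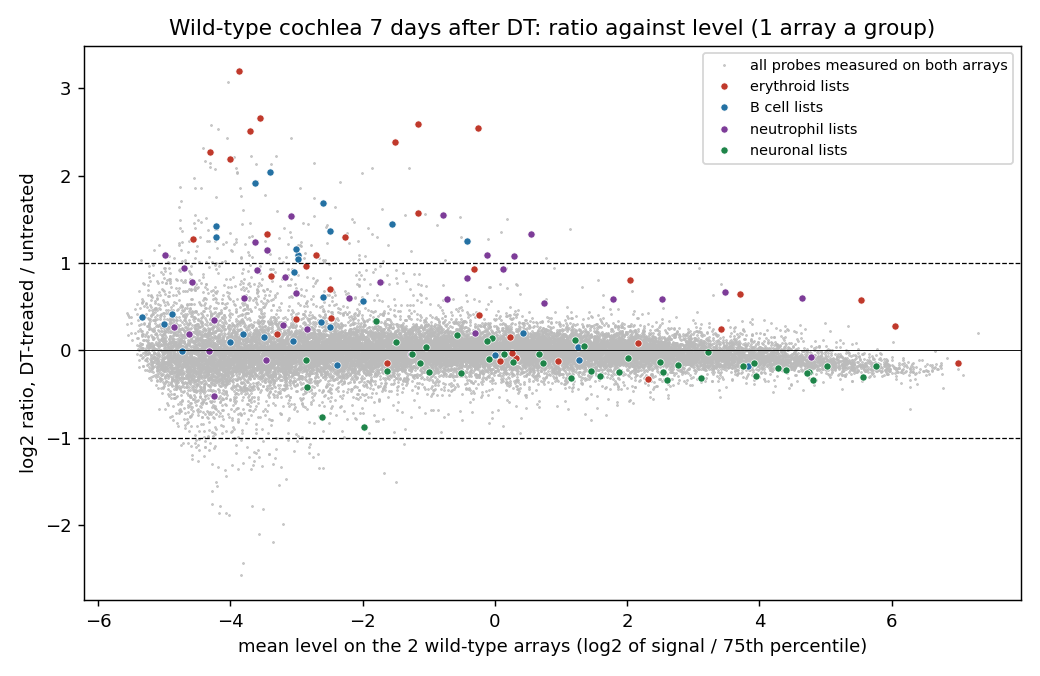
Ratio of the DT-treated over the untreated wild-type array (log2, y axis) against the mean level on both arrays (log2 of signal over the 75th percentile, x axis), 1 grey point a probe, with the chosen probe of each gene of the erythroid, B cell, neutrophil and neuronal lists in colour and dashed lines at 2-fold. The probes past 2-fold lie mostly on the dim side, where the spread is wide, whereas Slc4a1, Ahsp and Rhd (ratios 2.59, 2.54 and 2.39) lie above it at higher levels, and neuronal genes lie just under 0.

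The highest ratios were those of the red cell lineage. Of the 15 genes with the highest ratios, 8 were genes of red cell precursors, among them Kel, Gata1, Slc4a1, Ahsp, Hbq1b, Rhd and Trim10. Among transcription factors and cofactors of the lineage, 5 of 11 measured genes were at least 2-fold higher and 0 lower, with a median ratio of 0.96 against -0.03 for all genes. Among membrane and surface proteins of red cells the count was 6 of 17, with 0 lower and a median of 0.37. Both medians depended on which probes were read: above the median level of all probes they were 0.12 for the factors and -0.0753 for the membrane genes, and the membrane genes had 0.85 with the median over a gene's probes and 0.94 with probes well above background on at least 1 array. In bulk RNA of this kind, more cells of a type and more RNA per cell cannot be told apart.

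Gata1, the transcription factor that directs red cell and megakaryocyte development, had a level of -4.88 on the untreated and -2.22 on the DT-treated wild-type array. The ratio was 2.66, with an error of 0.29 by the scanner software's error model, which covers the spots and not the mice, and an SD of 0.42 among all probes of that level. On the Prestin-hDTR arrays it was not well above background without DT and had a level of -4.59 with DT. The DT-treated wild-type array thus stood above the other 3. Klf1, the activator of the adult beta-globin genes, had levels of -5.21 and -3.93 (ratio 1.28), and Gfi1b, a repressor needed in red cell and platelet precursors, had levels of -4.11 and -2.78 (1.33). E2f2, which acts in the last divisions of red cell precursors, had levels of -1.96 and -0.38 (1.57), and Tal1 of -3.25 and -2.16 (1.09). Other members of the list differed less: the ratios of Lmo2, Ldb1 and Zfpm1 were 0.15, -0.09 and 0.09.

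Kel, which encodes the Kell blood group protein, had the highest ratio of all genes, with levels of -5.46 untreated and -2.27 with DT (ratio 3.19, software error 0.31, 9.16-fold). Slc4a1, the anion exchanger band 3 of the red cell membrane, went from -2.45 to 0.14 (2.59, error 0.21, 6.03-fold), and its level was well clear of background on both arrays. On the Prestin-hDTR arrays Slc4a1 had levels of -2.75 without and -1.12 with DT. For both genes the untreated arrays of the 2 genotypes were close to each other, and the DT-treated wild-type array was the highest of the 4. Rhd, the Rh blood group antigen, had levels of -2.71 and -0.32 (2.39), Trim10, a tripartite motif protein of red cell precursors, of -5.10 and -2.91 (2.19), and Epor, the erythropoietin receptor, of -2.92 and -1.62 (1.30). Epb42, a protein of the membrane skeleton, was well above background only on the DT-treated wild-type array of this pair, which makes it at least 3.28-fold higher (every such bound is taken against the dim array, at the higher of its dimmest signal called well above background and the probe's own signal there). Of the 17 genes of red cell membrane and surface 5 were lower, down to -0.33 for Sphk1, among them Tfrc, the transferrin receptor (-0.12). Probes of 2 of its genes disagreed by more than 1: for Ermap the brighter probe gave -0.14 and the other 2.32, and for Epb41 the 3 probes ran from 0.25 to 1.29.

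Because these genes were higher together, the 250 bases upstream of their start sites were searched for the letters bound by GATA factors (AGATAA and TGATAA) and for the letters CCACACCC bound by KLF1, on both strands. Windows were held for 10 of the 13 genes of the transcription factor, membrane and globin lists that were at least 2-fold higher (12 windows, RefSeq, GRCm38.p6). AGATAA occurred in 5 of the 12 windows and in 9.99% of all 32851 windows of this length, TGATAA in 3 of 12 and in 7.94%, either of the pair in 7 of 12 and in 16.6%, and CCACACCC in 0 of 12 and in 3.2%. Shown are the windows of Kel, the gene with the highest ratio, which holds 1 of each GATA sequence, of Rhd and Epor, with 1 match each, and of Gata1, which holds none. Capitals mark the matches, lower case the rest, 5′ to 3′ on the gene's strand. They lie at chr6:41704326-41704575 (minus strand), chr4:134864286-134864535 (plus), chr9:21963577-21963826 (minus) and chrX:7967911-7968160 (minus). A match of letters is a description and not evidence of binding, which these arrays do not measure.
Kel: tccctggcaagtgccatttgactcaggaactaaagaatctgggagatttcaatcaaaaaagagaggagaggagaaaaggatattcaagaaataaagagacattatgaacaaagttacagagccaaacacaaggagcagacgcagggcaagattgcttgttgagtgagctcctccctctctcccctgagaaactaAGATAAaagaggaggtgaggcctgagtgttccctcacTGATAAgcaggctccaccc
Rhd: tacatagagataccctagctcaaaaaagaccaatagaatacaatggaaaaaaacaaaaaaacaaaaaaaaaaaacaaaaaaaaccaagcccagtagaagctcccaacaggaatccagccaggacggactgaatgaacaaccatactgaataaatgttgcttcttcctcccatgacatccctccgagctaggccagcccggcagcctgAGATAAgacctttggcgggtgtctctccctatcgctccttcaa
Epor: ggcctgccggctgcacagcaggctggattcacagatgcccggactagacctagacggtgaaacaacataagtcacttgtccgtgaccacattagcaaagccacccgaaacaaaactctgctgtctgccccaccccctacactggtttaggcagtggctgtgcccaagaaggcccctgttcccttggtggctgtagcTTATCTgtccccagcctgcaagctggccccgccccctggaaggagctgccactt
Gata1: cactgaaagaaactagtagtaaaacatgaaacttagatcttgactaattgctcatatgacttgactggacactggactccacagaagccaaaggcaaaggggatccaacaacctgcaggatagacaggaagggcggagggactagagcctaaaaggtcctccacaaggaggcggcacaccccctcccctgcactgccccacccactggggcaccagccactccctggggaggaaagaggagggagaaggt

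Globins showed a graded picture. Ahsp, the chaperone of free alpha-globin, had levels of -1.52 and 1.01 (ratio 2.54, error 0.21, 5.81-fold), and Hbq1b, a minor globin of the alpha cluster, of -4.96 and -2.45 (2.51). The abundant adult chains differed less, with ratios of 0.81 for Hbb-b1, 0.64 for Hbb-b2, 0.58 for Hbb-bt, 0.28 for Hba-a1 and -0.15 for Hba-a2. The copies of the alpha and of the beta chain are nearly identical in sequence, so that probes may share targets. In all, 2 of 7 measured members of the globin list passed 2-fold. Heme synthesis, by contrast, had 0 of 14 past 2-fold and a median of 0.09: Alas2, the red cell form of its first enzyme, had levels of 0.43 and 1.37 (ratio 0.94), while Alad, Urod, Cpox and Fech, which all cells use, had ratios of 0.20, -0.01, -0.03 and 0.13. Among enzymes and late maturation genes of red cells, 0 of 12 passed 2-fold, with a median of 0.21 and the highest ratio for Car1, carbonic anhydrase 1 (0.93).

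Several B cell genes were also higher. Of 18 measured genes of mature B cells, 8 were at least 2-fold higher and 0 lower, and the median ratio was 0.73. No gene of this list was measured above the median level of all probes, so that the ratios all come from dimmer probes. Ms4a1 (CD20) had levels of -4.42 and -2.38 (ratio 2.05, error 0.26, 4.13-fold), and Fcmr, the Fc receptor for IgM, of -4.58 and -2.67 (1.92). Cd79b, a signalling chain of the B cell receptor, went from -2.28 to -0.83 (1.45), whereas its partner Cd79a went from -3.49 to -2.59 (0.89) and did not pass 2-fold. The lineage factors Spib and Pou2af1 had ratios of 1.09 and 1.16. The kappa light chain constant region, Igkc, went from -3.18 to -1.81 (1.36) and a lambda constant region, Iglc2, from -4.30 to -1.87 (2.43). The heavy chain of IgM, Ighm, had a ratio of 0.56. Igha, the IgA heavy chain, went the other way: it was well above background on the untreated array only (level -2.93), which makes it at least 5.85-fold lower after DT. On the Prestin-hDTR arrays Igha had levels of -4.63 without and -1.95 with DT, so that it opposed the direction of the wild-type pair. Other B cell genes hardly differed: the ratios of Cd22, Cr2 and Fcer2a were -0.17, 0.09 and 0.00.

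Of the genes of B cell progenitors, 3 of 12 passed 2-fold and the median was 0.20. They were Ly6d (levels -3.45 and -1.76, ratio 1.69), a marker of committed lymphoid progenitors, Vpreb3 (-1.05 and 0.21, 1.26), a protein of B lineage cells, and Dntt (-3.51 and -2.46, 1.05), the polymerase that adds bases at recombination joints. The recombinase genes Rag1 and Rag2 had ratios of 0.18 and 0.38, and the factors Ebf1, Lef1 and Bach2 had ratios of 0.03, -0.11 and 0.11. Of the 5 measured plasma cell genes 0 passed 2-fold (median 0.20).

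Genes of the neutrophil granule lists were higher too. The list of specific and tertiary granules also holds neutrophil surface proteins such as Ly6g and Ltb4r1. All of its 14 genes were higher after DT (41.6% among all genes), 12 by at least 1.5-fold and 6 by at least 2-fold. The median was 0.84, with ratios from 0.29 (Ly6g) to 1.54 (Mmp8). Ltf, lactoferrin, went from -0.11 to 1.22 (ratio 1.33, error 0.20, 2.52-fold), Lcn2, lipocalin 2, from -0.25 to 0.83 (1.07), Hp, haptoglobin, from -0.67 to 0.42 (1.09), and Camp, the cathelicidin precursor, from 2.22 to 2.82 (0.59). The primary granule list, which also holds the transcription factors Cebpe and Gfi1, was higher in 7 of 7, with a median of 0.59 and 0 past 2-fold. Mpo, myeloperoxidase, had levels of 0.47 and 1.02 (0.55), and Elane, neutrophil elastase, of -0.40 and -0.20 (0.19). Of 14 genes of mature neutrophils 9 were higher and 5 lower, and 2 passed 2-fold, Retnlg (1.55) and the formyl peptide receptor Fpr1 (1.24). S100a8 and S100a9, the calprotectin subunits, had ratios of 0.66 and 0.60 with levels of 3.15 to 3.81 and of 4.35 to 4.94, and Csf3r had a ratio of -0.07.

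The untreated Prestin-hDTR array stood below both wild-type arrays for the granulocyte genes, and this concerns every reading of them. Ltf had levels of -1.53 and -0.48 on the Prestin-hDTR arrays without and with DT, Mpo of -1.66 and -0.49, and S100a8 of 1.53 and 2.29. For the specific granule list the untreated arrays of the genotypes differed by a median of -1.33 (Prestin-hDTR minus wild-type), a gap wider than the median wild-type ratio of 0.84. The levels of these genes thus differed between 2 pools that had both received no toxin by more than they differed with the toxin. For erythroid transcription factors and red cell membrane genes the corresponding medians were -0.23 and -0.05. Among single genes the untreated levels were close for Kel (-5.46 in wild-type and -5.37 in Prestin-hDTR mice), Slc4a1 (-2.45 and -2.75) and Ahsp (-1.52 and -1.76) and further apart for Rhd (-2.71 and -3.56), Gfi1b (-4.11 and -5.06) and Gata1 (-4.88 and, not well above background, -6.09).

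Eosinophil granule genes and some platelet genes were higher as well. In the list of mast cells, basophils and eosinophils, 5 of 10 measured genes passed 2-fold, with a median of 0.92, and all 5 encode eosinophil granule proteins. They were Ear1 (levels -2.51 and -0.90, ratio 1.62), Ear2 (-0.57 and 0.93, 1.51), Prg2, the major basic protein (-0.75 and 0.53, 1.27), Prg3 (-5.40 and -4.16, 1.23) and Ear6 (-2.61 and -1.52, 1.09). The Ear genes are close copies of each other, and their probes may share targets. For this list the untreated arrays of the genotypes differed by a median of -1.14 (Prestin-hDTR minus wild-type), a gap wider than the wild-type ratio. With DT in Prestin-hDTR mice the list had a median of 0.18 and 0 of 6 past 2-fold. The mast cell tryptase Tpsb2 and the histamine-forming enzyme Hdc had ratios of -0.03 and 0.16. The mast cell proteases Mcpt4 and Cpa3 were well above background without DT only in wild-type mice, at least 4.17-fold and at least 1.67-fold lower. Of the platelet and megakaryocyte genes, 4 of 16 passed 2-fold, with a median of 0.37: Ppbp, a platelet chemokine (-1.28 and 0.24, 1.52), Gp1ba and Gp9, subunits of the von Willebrand factor receptor (1.25 and 1.06), and Treml1 (1.02). In this list 5 of 16 were lower, with Mmrn1, multimerin of platelets and endothelium, at -2.81 and -3.81, just short of 2-fold lower. Ppbp stood at -5.46 and -4.55 on the Prestin-hDTR arrays, far below both wild-type arrays.

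Not all leukocyte genes were higher. T cell and NK cell genes had a median of -0.01 with 0 of 11 past 2-fold, and macrophage genes a median of -0.02 with 0 of 16. Interferon response genes were lower in 24 of 28 (median -0.22), against 58.4% lower among all genes, and 1, Oas3, was 2-fold higher (levels -5.20 and -4.08). The list of inflammation and acute phase genes had a median of -0.02 with 2 of 11 past 2-fold, Hp and Lcn2, both of which are also granule proteins of neutrophils. In mice with the transgene the same lists had other medians with DT: 1.07 for macrophage genes, 0.51 for interferon response genes and 1.10 for inflammation genes.

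Genes of dividing cells were higher as well. Of 28 measured cell cycle genes, 10 were at least 2-fold higher, 26 were higher at all (41.6% among all genes), and the median was 0.70. Mki67, the Ki-67 antigen, went from -2.35 to -0.26 (ratio 2.09, error 0.21, 4.25-fold), Tpx2, a spindle assembly factor, from -4.36 to -2.58 (1.77), Birc5, survivin, from -1.83 to -0.28 (1.56), Rrm2, a ribonucleotide reductase subunit, from -2.14 to -0.59 (1.55), and the mitotic cyclins Ccnb1 and Ccnb2 had ratios of 1.21 and 1.33. Top2a, the DNA topoisomerase of dividing cells, was well above background with DT only and at least 2.91-fold higher. The sliding clamp gene Pcna and genes of the replicative helicase differed little, with ratios of -0.01 for Pcna, 0.03 for Mcm4 and 0.10 for Mcm6. The plot of the lists shows the members beside their medians.

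**Figure D2:**
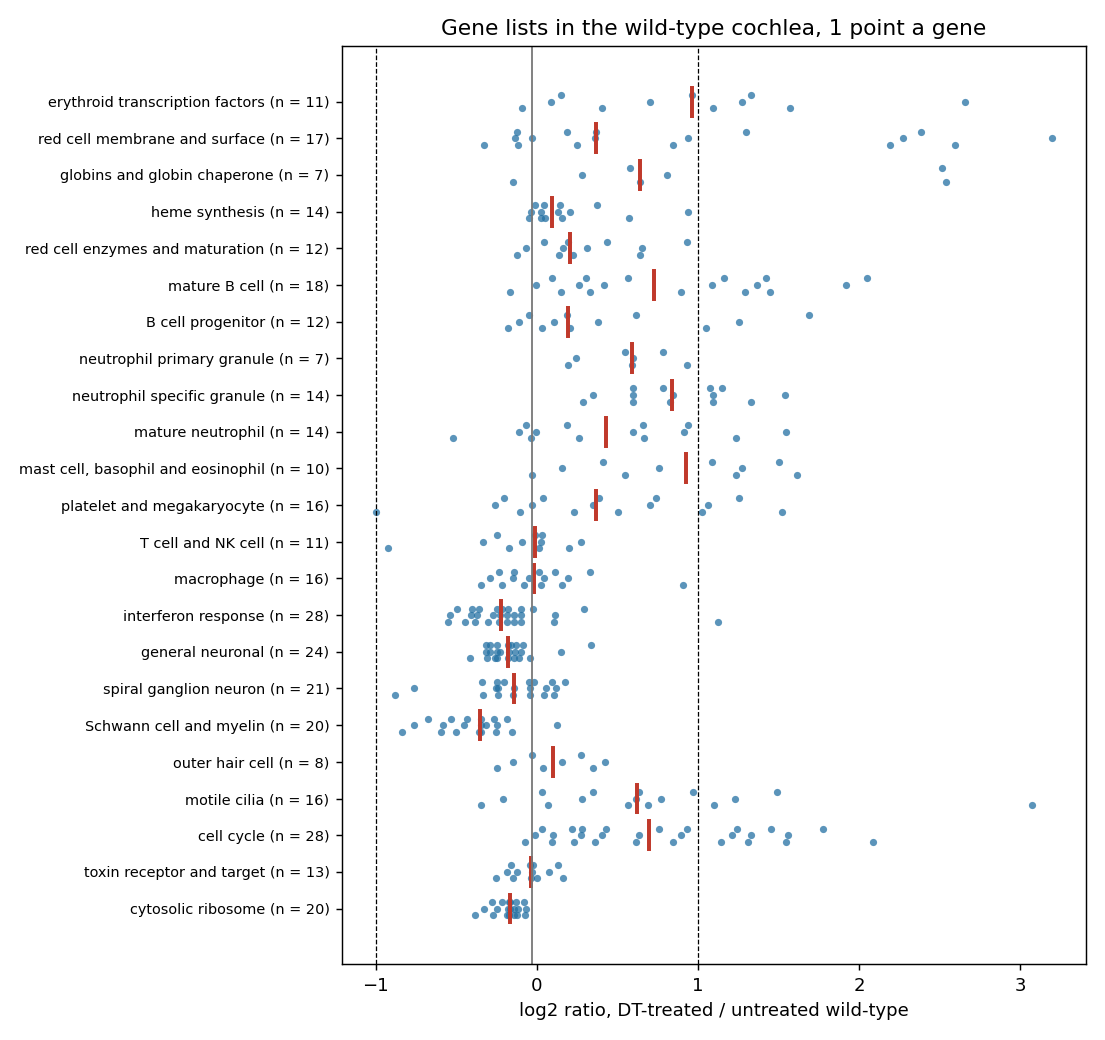
Log2 ratio of the DT-treated over the untreated wild-type array for the members of 23 gene lists measured on both arrays (1 blue point a gene, x axis; points are offset vertically to be seen), with the list's median as a red bar, the median of all genes (-0.03) as a grey line and dashed lines at 2-fold. Members of the red cell, B cell, granulocyte and cell cycle lists spread to the right, up to Kel at 3.19, whereas neuronal, myelin and ribosomal genes sit in narrower bands mostly left of 0.

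Neuronal genes were slightly lower. Of 24 genes expressed by neurons in general, 22 were lower after DT and 2 higher, against 58.4% lower among all genes. Of these 24, 0 passed 2-fold or even 1.5-fold, and the median was -0.18, with ratios from -0.42 (Gap43) to 0.33 (Vgf). Snap25, a vesicle fusion protein, had levels of 4.10 and 3.81 (ratio -0.29, error 0.20), Nefl, the light neurofilament, of 5.73 and 5.42 (-0.31), and Rbfox3, the NeuN antigen, of 1.30 and 0.99 (-0.31). On the Prestin-hDTR arrays Snap25 had levels of 3.83 and 3.55 and Nefl of 5.64 and 5.39, so that in both genotypes the DT-treated pool was the lower. Each of these differences is under 2 times the software error. The brightest bin of probes had a median of -0.10, and also lower were ribosomal protein genes (20 of 20 lower, median -0.17) and reference genes (7 of 8 lower, median -0.10, but 0.000497 with normexp background correction and quantile scaling). Whether the neuronal shift goes beyond that of bright probes was not tested.

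Among the genes of spiral ganglion neurons, which carry the signal from hair cells to the brain, 15 of 21 were lower, against 58.4% of all genes. Their median was -0.14, with 0 past 2-fold. The largest differences were those of Calb1, calbindin (levels -1.54 and -2.42, ratio -0.88, with a second probe at the same value), and Prph, peripherin, a marker of the thin fibres of type II neurons (-2.24 and -3.00, -0.76). The fibres of type II neurons contact outer hair cells. On the Prestin-hDTR arrays Calb1 had levels of -2.30 and -3.35 and Prph of -2.82 and -2.19, and the untreated wild-type array was the highest of the 4 for Calb1. The transporter Slc17a7 had a ratio of 0.04, the neurotrophin receptors Ntrk2 and Ntrk3 of 0.05 and -0.04, and Gata3 of -0.02. Of 8 measured genes of brain neurons, 7 were lower, with a median of -0.43, and Slc32a1, the vesicular transporter of inhibitory neurons, was 2-fold lower (levels -3.76 and -4.90, ratio -1.14). The exception was Gad1 (0.77). With the DT-treated wild-type array set against the untreated Prestin-hDTR array, the median of the brain neuron genes was -0.04. Slc32a1 had a level of -4.72 on that untreated array.

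Myelin and glial genes were lower too in the wild-type pair. Of 20 genes, 19 were lower (58.4% among all genes), 4 by at least 1.5-fold, with a median of -0.35. Mbp, myelin basic protein, had levels of 2.38 and 1.79 (ratio -0.60, with its 3 probes between -0.60 and 0.29), and Prx, periaxin of peripheral myelin, of 4.89 and 4.44 (-0.45). Mag, a myelin gene, had a ratio of -0.54, and Mobp and Mog, genes of central myelin, had ratios of -0.58 and -0.50. The oligodendrocyte factor Olig1 had one of -0.76. Sox10, which glia, melanocytes and other cells express, had a ratio of 0.13. The untreated wild-type array stood above the other 3 for Mobp (2.32 against 1.74, 1.80 and 1.66) and Mag (2.61 against 2.07, 2.13 and 1.96). With DT in Prestin-hDTR mice the list had a median of 0.06. With the DT-treated wild-type array set against the untreated Prestin-hDTR array, its median was -0.18.

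Most hair cell and other ear genes differed by less than 2-fold in wild-type mice. Of 8 outer hair cell genes 0 passed 2-fold, and the median was 0.10, against -2.37 with DT on the Prestin-hDTR arrays. Ocm, the calcium buffer oncomodulin, had levels of 4.36 and 4.21 in wild-type mice (ratio -0.15) and of 4.35 and 1.97 in Prestin-hDTR mice, where only the last array stands apart. The probe of Slc26a5 was dim, with levels of -4.89 and -4.47 in wild-type mice (0.42, error 0.32). Inner hair cell genes had a median of -0.02 with 0 of 8 past 2-fold, and genes of the stria vascularis and lateral wall of 0.14 with 0 of 15. The list of genes shared by both kinds of hair cell had a median of 0.19 with 1 of 19 past 2-fold. It was Ptprq, a phosphatase of the hair bundle (levels -4.89 and -3.51, ratio 1.39). On the Prestin-hDTR arrays Ptprq had levels of -3.53 without DT and, not well above background, -5.14 with DT. Among supporting cell and tectorial membrane genes the median was -0.01 with 1 of 16 past 2-fold, Otog, otogelin of the acellular membranes (levels -1.27 and -0.23, ratio 1.04, against -0.37 and -0.58 on the Prestin-hDTR arrays). In wild-type mice Tecta, a tectorin of the tectorial membrane, was well above background with DT only, at least 3.19-fold higher. In Prestin-hDTR mice it was so without DT only (level -4.79, against -7.38 with DT). For Ptprq and Tecta the DT-treated wild-type array and the untreated Prestin-hDTR array were thus the higher pair.

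The genes of the toxin's own route differed little in wild-type mice: 0 of 13 passed 2-fold or 1.5-fold, with a median of -0.04. Hbegf had levels of -1.50 and -1.75 (ratio -0.25, error 0.21), Cd9, which associates with the receptor, of 4.58 and 4.43, Furin of 1.43 and 1.56, and Eef2, the target, of 4.55 and 4.53 (-0.02). The diphthamide enzymes Dph1, Dph2 and Dph5 had ratios of -0.18, -0.04 and -0.16. Of the genes that p53 or cell death programmes induce, 0 of 15 passed 2-fold (median 0.03), and of those of the unfolded protein and integrated stress responses 0 of 14 (median 0.13).

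Genes of motile cilia were higher in wild-type mice, with 4 of 16 at least 2-fold higher, 14 higher at all (41.6% among all genes) and a median of 0.62. Cfap52, a protein of the ciliary axoneme, had the second highest ratio of all genes, with levels of -5.57 and -2.50 (ratio 3.07, error 0.31, 8.43-fold). On the Prestin-hDTR arrays its levels were -2.20 without and -5.41 with DT. Fam183b (-2.82 and -1.59, against -1.20 and -3.78) and Mlf1 (-3.96 and -2.85, against -2.52 and -4.11) had the same order. For these genes the DT-treated wild-type array and the untreated Prestin-hDTR array were high and the other 2 low, so that the level followed neither the toxin nor the genotype. Zmynd10, a dynein assembly factor, had levels of -5.50 and -4.01 (1.49). Foxj1, the main regulator of ciliated cells, had a ratio of -0.21 and Hydin of 0.03. Outside the list, and picked out after their values were seen, Cib3 (-3.02 and -0.99, against -0.85 and -3.93), Zcchc12 (-4.96 and -2.87, against -2.61 and -5.13), Cyp2g1 (-5.27 and -3.19, against -2.83 and -5.13) and Skor1 (-3.62 and -1.87, against -1.69 and -4.06) had this order too.

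The remaining genes among the 15 with the highest ratios were dim. Syt10, a synaptotagmin, had levels of -4.43 and -2.20 (2.23), Eno4, an enolase of sperm, of -4.80 and -2.57 (2.22), and Plag1, a zinc finger transcription factor, of -5.04 and -2.84 (2.21). Scgb2b27, a secretoglobin, had a ratio of 2.17, and Trim30b of 2.15. Of these, Plag1 stood at -5.02 and -5.17 on the Prestin-hDTR arrays, so that the DT-treated wild-type array alone was high, while Syt10 stood at -2.59 and -1.61, so that the untreated wild-type array alone was low. A further 233 genes were well above background with DT only, 156 of them by a bound of at least 2-fold. The 5 highest bounds were those of Clspn, claspin of the replication checkpoint (at least 11.9-fold), Pabpc2 (9.90), Gm10450 (9.53), 4933434M16Rik (9.45) and Ces2h (9.38), and 0 of these 5 were well above background on either Prestin-hDTR array.

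The 10 genes with the lowest ratios shared no programme of the lists, and 1 of the 63 genes past 2-fold, Slc32a1, belonged to any list. Acsm3, a medium-chain acyl-CoA synthetase, had levels of -2.55 and -5.12 (ratio -2.57, error 0.34), Carf, a calcium-responsive transcription factor, of -2.60 and -5.03 (-2.43), Zbtb37, a zinc finger protein, of -2.26 and -4.46 (-2.19) and Hlx, a homeobox factor, of -2.51 and -4.62 (-2.10). For Acsm3 the levels on the Prestin-hDTR arrays were -5.65 (untreated) and, not well above background, -5.93, and for Carf they were -4.72 and -5.08. Only the untreated wild-type array was high. The other 2 measured probes of Zbtb37 had ratios of 0.30 and 0.80 and so the opposite direction. The others were Gm12359 (-1.88), A630081D01Rik (-1.85), Pira11 (-1.81), LOC102641317 (-1.76), 4930511M06Rik (-1.61) and Kiss1, the kisspeptin precursor (-1.55). A further 1564 genes were well above background without DT only (the DT-treated array had the lower share of such probes), and 170 of them had a bound of at least 2-fold. The 5 highest of these bounds were 8.13-fold for Lce1g, 7.75 for Adad2, 7.75 for Olfr95, 7.05 for 9530034A14Rik and 6.84 for AU044856. Of these, Lce1g and Olfr95 were also well above background on the untreated Prestin-hDTR array (levels -5.02 and -2.46) and not on the DT-treated one, and AU044856 was so only with DT. The pituitary hormone genes Prl and Gh, named after their values were seen, were also highest on the untreated wild-type array, with levels of -0.98 and -2.38 for Prl (against -1.28 and -1.76) and of -1.94 and -3.28 for Gh (against -2.91 and -3.73).

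On the 18229 genes measured on all 4 arrays, the called genes were also set against the untreated Prestin-hDTR array. Of the 45 that were 2-fold lower in wild-type mice, 5 were also 2-fold lower when the DT-treated wild-type array was set against the untreated Prestin-hDTR array. Of the 125 that were 2-fold higher, 99 were also 2-fold higher against the untreated Prestin-hDTR array. Both readings share the DT-treated wild-type array, which also entered the choice of the 125 and the 45 genes. The 99 and the 5 are therefore no independent check of the calls. Among all genes read against that baseline, not only those measured on all 4 arrays, 258 were 2-fold higher and 38 were 2-fold lower. The medians of the lists are given side by side. For the erythroid transcription factors the median ratio was 0.96 against the untreated wild-type array and 1.45 against the untreated Prestin-hDTR array, for mature B cell genes 0.73 and 0.85, for specific granule genes 0.84 and 2.35, and for cell cycle genes 0.70 and 0.90. For motile cilia the medians were 0.62 and -0.19. The levels of 16 genes on each array show these orders.

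**Figure D3:**
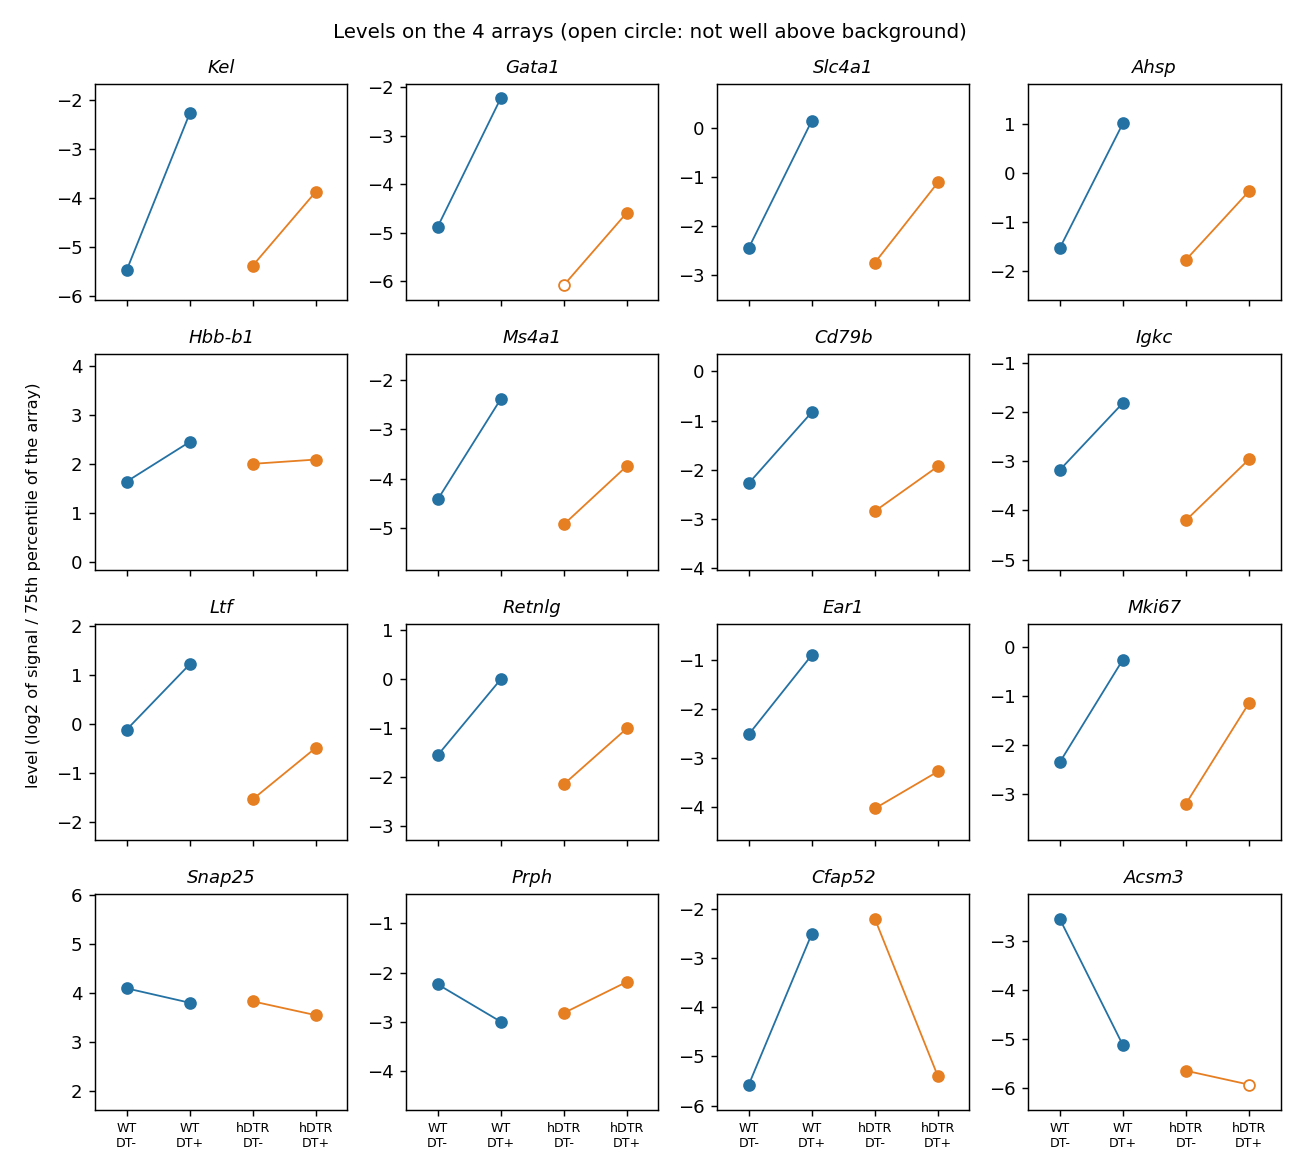
Level of 16 genes (y axis, log2 of signal over the array's 75th percentile) on the untreated and DT-treated wild-type arrays (WT, blue) and Prestin-hDTR arrays (hDTR, orange), 1 pool a point, with open circles where the probe was not well above background and lines that join the 2 arrays of a genotype. Kel, Slc4a1, Ahsp and Ms4a1 are highest on the DT-treated wild-type array, Cfap52 is high on both the wild-type array with DT and the Prestin-hDTR array without it, and Acsm3 is high only on the untreated wild-type array.

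The toxin comparison in Prestin-hDTR mice shares no array with that in wild-type mice. On the same 18229 genes, 248 (1.36%) were at least 2-fold higher and 131 (0.719%) at least 2-fold lower with DT in Prestin-hDTR mice. Of the 125 genes that were higher in wild-type mice, 39 (31.2%) were also higher in Prestin-hDTR mice, which is 15.7% of the 248. They included Kel, Slc4a1, Rhd and Ahsp of red cells, Ms4a1, Igkc, Iglc2, Spib and Ly6d of B cells, Ltf, Lcn2, Cd177, Retnlg and Fpr1 of neutrophils, and Mki67, Birc5, Ccnb1, Ccnb2, Ccna2, Nusap1, Rrm2 and Ube2c of dividing cells. Of the 45 lower genes, 2 (4.44%) were also lower, Phtf1os and Xlr4a, which is 1.53% of the 131. In the opposite directions were 9 genes higher in wild-type and lower in Prestin-hDTR mice (7.2% of the 125 and 6.87% of the 131) and 4 lower in wild-type and higher in Prestin-hDTR mice (8.89% of the 45 and 1.61% of the 248), among them Cybb, a subunit of the phagocyte oxidase (-2.99 and -4.03 in wild-type, -4.88 and -3.53 in Prestin-hDTR mice).

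The ratios of single genes in the 2 genotypes were as follows. Kel had a ratio of 3.19 in wild-type and 1.50 in Prestin-hDTR mice, Slc4a1 of 2.59 and 1.63, Ahsp of 2.54 and 1.40, and Hbq1b of 2.51 and 0.36. These 4 red cell genes were thus higher with DT in both genotypes, by less in Prestin-hDTR mice. Ms4a1 had ratios of 2.05 and 1.19 and Fcmr of 1.92 and 0.93, whereas Spib had 1.09 and 1.71. Mki67 had 2.09 and 2.05, and Ccnb2 1.33 and 1.77. Neutrophil genes were split, with 1.33 and 1.05 for Ltf, 1.07 and 2.02 for Lcn2, 1.09 and 2.79 for Cd177 and 1.54 and 0.43 for Mmp8. Gfi1, which neutrophil precursors and hair cells both express, had 0.93 and -2.08. None of these differences between genotypes was tested, as each rests on 4 single arrays. The list medians in Prestin-hDTR mice were 0.54 for mature B cells, 0.95 for specific granules, 0.74 for the cell cycle and -0.22 for general neuronal genes. For erythroid transcription factors the median was 0.37, with 0 of 8 at least 2-fold higher. Red cell membrane genes had 0.08 (3 of 17) and globins 0.11 (1 of 7), so that most red cell genes did not pass 2-fold there.

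**Figure D4:**
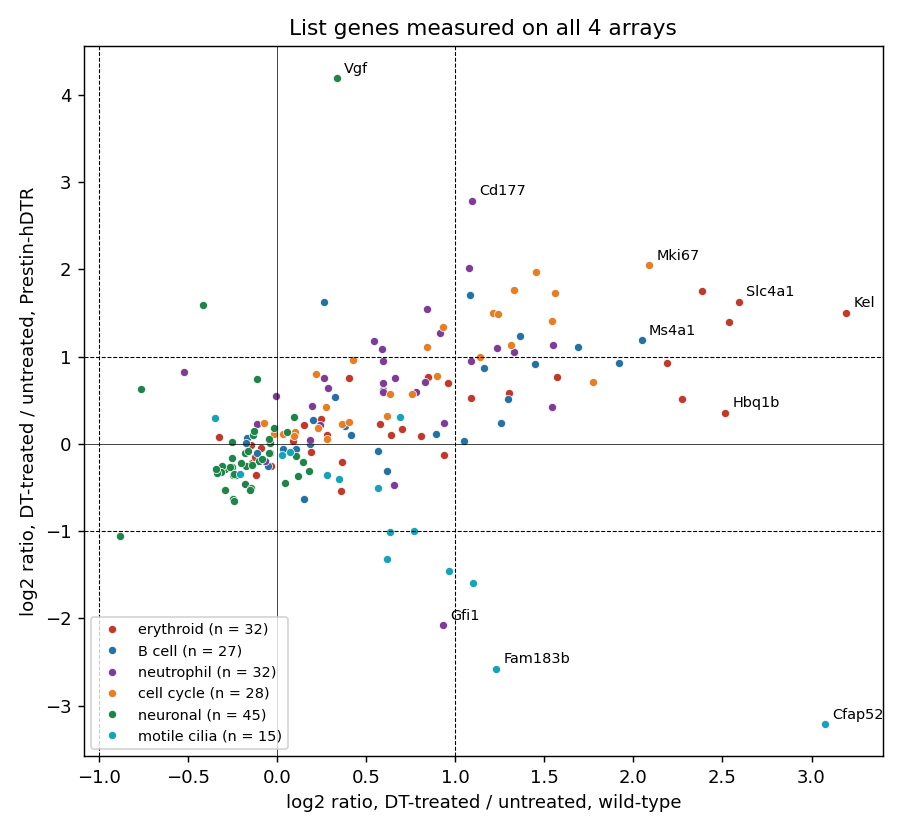
Log2 ratio with DT in wild-type mice (x axis) against that in Prestin-hDTR mice (y axis) for the genes of 6 groups of lists measured on all 4 arrays (1 point a gene, dashed lines at 2-fold). The genes past 2-fold higher in both genotypes belong to the red cell, B cell, neutrophil and cell cycle groups, such as Kel at 3.19 and 1.50, while other members of these groups lie near 0, most motile cilia genes lie in the lower right, down to Cfap52 at 3.07 and -3.21, and neuronal genes gather near 0 apart from a few such as Vgf at 0.33 and 4.19.

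The pools were balanced for sex by design, and Xist, the X inactivation RNA, had levels of -2.36 and -2.32 on the wild-type arrays, with ratios of 0.20 and 0.31 for the Y-linked Ddx3y and Eif2s3y. Kdm5d, also Y-linked, was near background, and well above it with DT only (at least 2.55-fold higher). Gapdh, a reference gene, had a ratio of -0.26 by its brightest probe and of up to 0.31 by another. All 4 arrays lay on 1 slide, and position on the slide, pool and treatment cannot be told apart.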

How the data were processed

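Cy3-labelled cRNA from pooled cochlear RNA was measured on 1-colour Agilent mouse arrays, with 1 array for each group. Per the labels, Agilent Feature Extraction 11.5.1.1 made the deposited files, whose gProcessedSignal column is the authors' background-subtracted intensity on a linear scale. The deposited series value table holds the authors' processed intensity, and was used as an alternative. Members and gene lists were chosen with earlier results of these data known.

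Control spots and spots flagged as outliers were removed, spots of a probe were averaged, and the signals were divided by the array's 75th percentile. From the deposited intensity, log2 levels and log2 ratios (fold differences) were calculated here. Probes well above background on at least 0.5 of their spots on both wild-type arrays were kept, and a gene was read from its brightest such probe. Symbols came from the files and RefSeq (31739 of 39429 probes), and the remaining probes kept the file's name. Genes were named by rule: the 15 highest and 10 lowest ratios, the 5 highest bounds in each direction, list members past 2-fold or defining a cell type, and a few checks. Some genes that the rule names are not reported here. Windows upstream of genes came from RefSeq. The error of a ratio was propagated from the software's error column. With 1 array a group, no test was run, and array number limits the precision. The steps were tested on simulated data with planted changes and less noise than the dim probes have. That test cannot show how reliable the 2-fold calls are. Alternatives were quantile and median scaling, normexp (offset 50, limma 3.58.1), other filters, outlier spots kept and other probe rules. Python 3.11.15 and R 4.3.3 were used.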

Additional observations from a re-analysis of the deposited data

Results flagged for a closer look

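In the motile cilia list, 4 of 16 genes were 2-fold higher with DT in wild-type mice, 6 of 15 were 2-fold lower with DT in Prestin-hDTR mice, and 3 were both. The log2 ratio of Cfap52 was 3.07 in wild-type and -3.21 in Prestin-hDTR mice, that of Fam183b was 1.23 and -2.57, and that of Mlf1 was 1.10 and -1.59. Each value rests on 1 array a group, and the difference between the genotypes was not tested. In all 3 the DT-treated wild-type array and the untreated Prestin-hDTR array were the higher pair.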

How the results depend on the processing

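No paired analysis was possible because each group had 1 array, and for the same reason no array could be left out. Median scaling, quantile scaling, the series value table and the inclusion of outlier spots kept the 4 counts within 1.5 times and the 6 leading list medians within the spread between repeated spots (0.094, log2). The other settings moved some of them, and where no construction shows it the cause was not tested.

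With normexp and quantile scaling, 99 probes and 87 genes were at least 2-fold higher and 24 probes and 21 genes lower, and the medians were 0.80 for erythroid transcription factors, 0.63 for mature B cells, 0.70 for specific granules, 0.57 for the cell cycle and 0.000497 for reference genes. With normexp and the 75th percentile the counts were 94 and 82 higher and 26 and 23 lower, and the medians were 0.77, 0.62, 0.67 and 0.55 in the order of the first 4. With probes well above background on at least 1 array, which adds dim probes raised to the floor, 390 probes and 328 genes were higher and 291 and 237 lower (57.3% of the probes higher), and the medians were 0.94 for red cell membrane and 0.56 for mature B cells. With probes well above background on all 4 arrays the medians were 0.55 for erythroid transcription factors and 0.89 for mature B cells. Above the median level, where fewer genes were tested, 14 probes and 14 genes were higher and 0 of both lower. There the medians were 0.12 for erythroid transcription factors, -0.0753 for red cell membrane, 0.95 for specific granules, 0.16 for the cell cycle, -0.00726 for B cell progenitors and -0.35 for motile cilia. Mature B cells had no median there, as no gene of that list was measured above this level. With the median over the probes of a gene, red cell membrane had a median of 0.85 and Zbtb37 a ratio of 0.30.

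The untreated Prestin-hDTR array as baseline, added after the data were seen, gave 307 probes and 258 genes higher and 38 genes lower. The medians were 1.45 for erythroid transcription factors, 0.85 for mature B cells, 2.35 for specific granules, -0.0792 for general neuronal genes, 0.90 for the cell cycle, 0.17 for the interferon response, -0.0501 for genes shared by hair cells and -0.19 for motile cilia. The ratios that changed sign were -0.30 for Cfap52, 0.52 for Acsm3, 0.85 for Zbtb37, 0.0038 for Gm12359, 0.21 for A630081D01Rik, -0.34 for Mlf1, -0.19 for Zmynd10 and -0.38 for Fam183b. Against this array, 11 of the 13 top genes that were measured stayed past 2-fold higher and 0 of the 8 measured lowest genes stayed past 2-fold lower. The DT-treated wild-type array entered both the choice of these genes and this reading, so the counts are no independent check. Most calls lay near background, where ratios are least precise.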

Other observations

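Adipocyte genes were higher after DT in the wild-type pair, although 4 of the 10 genes of the list were measured on both arrays. The median ratio of these 4 was 0.48, Fabp4, the fatty acid binding protein of fat cells, had levels of -3.23 and -1.59 (1.64), and Plin4, a lipid droplet protein, of 1.74 and 2.42 (0.68). Adipoq, the hormone adiponectin, was well above background with DT only, at least 6.54-fold higher. It was not well above background on either Prestin-hDTR array. Retn, also of this list, was well above background without DT only in wild-type mice, at least 1.25-fold lower. Cfd, Lep, Plin1 and Cidec were well above background on neither wild-type array.

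Bone genes were higher in 15 of 17 (median 0.20), against 41.6% of all genes. Ibsp, bone sialoprotein, had levels of 1.32 and 1.95 and Bglap, osteocalcin, of 2.54 and 2.92. Skeletal muscle genes were lower in 10 of 10 (median -0.20), against 58.4% of all genes, with 0 past 2-fold in either list.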
